A study of Mus musculus with 14 samples.

Results

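Tubule identity and dedifferentiation were followed in injured mouse kidney through 8 transcription factor genes, Sox9, Sox4, Pax2, Pax8, Lhx1, Hnf4a, Hnf4g and Maf, of the 24411 genes counted. They were chosen by name as factors of tubule identity, and their measured values do not enter the rule. However, they and all gene lists below were chosen with earlier results of these data known. Bulk RNA sequencing, in which the RNA of all cells of the tissue is read together, covered 14 kidney libraries of male C57/B6 mice aged 8 weeks. There were 4 libraries at day 0 and 5 each at day 1 and day 3 after renal ischemia/reperfusion injury (IRI), an operation that interrupts and restores the blood flow of the kidney and causes acute kidney injury (AKI). Whether the day 0 mice had a sham operation is not given in the sources used here, nor is whether each library came from a separate mouse, so p-values measure the spread between these samples. No allele or drug is named for any group. The question was how the level of each factor at day 1 and day 3 compared with day 0.

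The mature nephron is a tube of epithelial segments, and the proximal tubule, which reabsorbs most of the filtrate, is the segment that ischemia damages most. Hnf4a is a nuclear receptor needed for the proximal tubule to mature, Hnf4g is its closest relative, and Maf is a large basic leucine zipper factor. Pax2, Pax8 and Lhx1 are needed to form the nephric lineage in the embryo. Sox9 and Sox4 are high mobility group factors of the developing kidney, and Sox9 is known to return in injured tubule cells, which lose differentiated features before the epithelium is repaired.

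At day 1 after IRI, 7 of the 8 factors differed from day 0 with an adjusted p under 0.05. Sox9, Sox4 and Pax8 rose, while Pax2, Lhx1, Hnf4a and Maf fell. Of all 14300 genes tested, 42.1% passed the same threshold, 23.3% as higher and 18.7% as lower. The libraries of the days did not overlap in 6 of the 8 factors, against 42% of all genes. At day 3, 3 factors differed from day 0, with Sox9 and Sox4 higher and Pax2 lower, against a background of 33.3% (19.5% higher and 13.8% lower), and the same 3 did not overlap, against 33.4%. Between day 1 and day 3, 5 factors passed the threshold, Sox4, Lhx1 and Maf as higher at day 3 and Sox9 and Pax8 as lower, against 15.9% of all genes (8.52% higher and 7.39% lower). None of the 8 factors separated day 3 from day 1 without overlap, against 7.61% of genes. This count of 5 was unstable, at 1 to 5 when 1 library was left out. It was 0 when only the 2 days were fitted, where 831 genes passed in place of 2276. All 8 passed the expression filter. Sox9 reached the filter's level of 0.583 CPM in 1 of 4 libraries of day 0 and in every later library, so it passed through the days on which it is high, and among the other 7 factors 6 changed at day 1 and 2 at day 3. In bulk tissue, fewer cells of a type and less RNA per cell cannot be told apart.

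**Figure D1:**
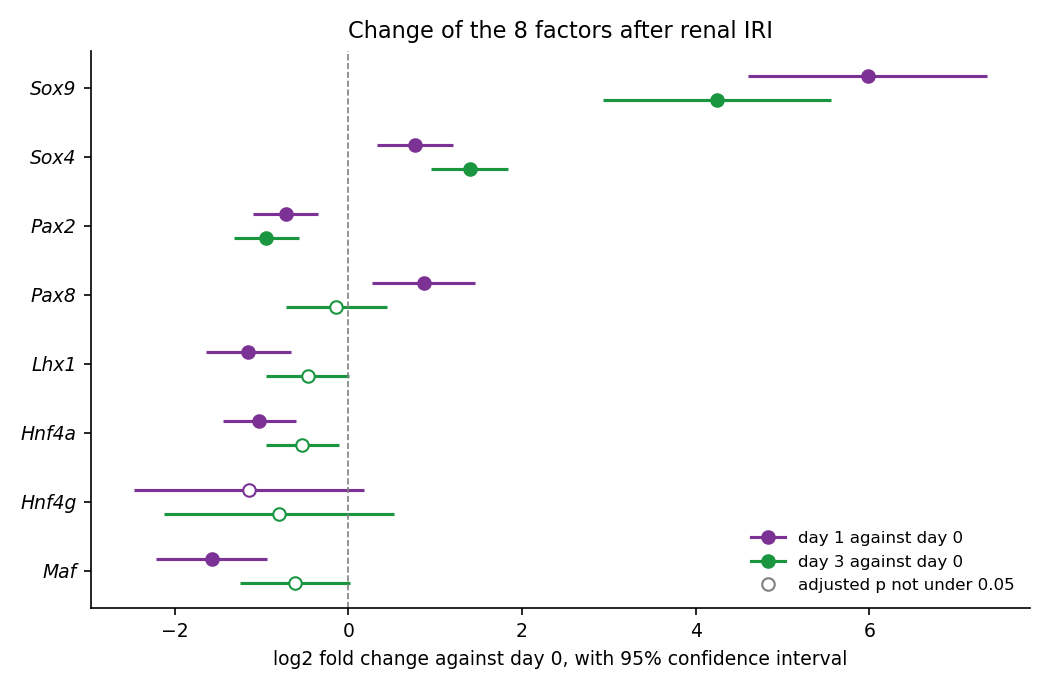
Change of each factor against day 0 on the log2 scale (x axis), with 95% confidence intervals, at day 1 (purple) and day 3 (green), where open symbols mark an adjusted p that is not under 0.05. Sox9 lies far to the right at 5.98 and 4.25, Pax8 is to the right at day 1 only, and Lhx1, Hnf4a and Maf are further left at day 1 than at day 3.

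Levels are given as CPM, the customary scaling of a gene's reads to the reads on all genes of its library, here with TMM factors, and changes are from edgeR's quasi-likelihood test with Benjamini-Hochberg adjustment over all genes tested. Reads on genes per library were 12485579 to 20476979. The median gene moved by 0.01 at day 1 and 0.05 at day 3 on the log2 scale. Of 20 markers of the differentiated proximal tubule, all were detected in every library, and their summed level was 68790 to 70259 CPM at day 0, 28758 to 73309 at day 1 and 16645 to 37627 at day 3. Library names carry a number of 3 digits in replicates 1 and 2 of day 1 and replicates 1, 2 and 3 of day 3, and of 1 digit everywhere else, day 0 included. No source used here says what this format stands for. Because it may mark a technical batch, results are also given by format, and at day 0 format and day cannot be told apart.

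Sox9 is a 3-exon gene at chr11:112782224-112787760 on the plus strand of build GRCm38, the assembly also called mm10. Its counts in replicates 1 to 4 of day 0 were 7, 7, 4 and 10. At day 1 the counts in replicates 1 to 5 were 564, 245, 225, 716 and 458, and at day 3 they were 227, 58, 133, 52 and 213. Every library after IRI stood above every library of day 0. As CPM, these were 0.403, 0.412, 0.253 and 0.605 at day 0, then 30.4, 11.1, 15.3, 40.9 and 36.8 at day 1, and 11.6, 3.27, 6.58, 3.50 and 15.6 at day 3. The day 3 libraries spread from 3.27 CPM in replicate 2 to 15.6 CPM in replicate 5. Means were 0.418 ± 0.144 (SD, n = 4), 26.9 ± 13.1 (SD, n = 5) and 8.11 ± 5.38 CPM (SD, n = 5). Sox9 was 63.1-fold higher at day 1 than at day 0 (log2 fold change 5.98 ± 0.64 SE, adjusted p = 2.48e-05), and 0.469% of all genes had a larger increase. At day 3 it was 19.0-fold higher (4.25 ± 0.61 SE, adjusted p = 0.000279). From day 1 to day 3 it fell by 1.73 on the log2 scale (adjusted p = 0.0210) with overlapping libraries, a call that was lost without day 1 replicate 4 or day 1 replicate 5 (adjusted p = 0.0580 and 0.0526) and with only the 3-digit libraries of the later days (-1.54, adjusted p = 0.0702).

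Sox4 has 1 exon and lies at chr13:28948919-28953713 on the minus strand. In replicates 1 to 4 of day 0 it stood at 8.00, 6.94, 8.53 and 11.0 CPM. Day 1 gave 14.1, 13.0, 14.3, 12.9 and 19.1 CPM, and day 3 gave 18.3, 27.6, 30.1, 18.8 and 18.6 CPM. The day 1 libraries were all above day 0, and 3 of the 5 libraries of day 3 were below the highest of day 1. Sox4 rose at day 1 (1.70-fold, log2 fold change 0.77 ± 0.21 SE, adjusted p = 0.00913) and at day 3 (2.63-fold, 1.40 ± 0.21 SE, adjusted p = 0.000347). After Sox9 it had the largest increase of the 8 factors at day 3, when 9.55% of all genes increased more. The step from day 1 to day 3 was 0.63 ± 0.19 SE on the log2 scale (adjusted p = 0.0371). That step was past the threshold with all libraries but not without day 0 replicate 1 or 3, day 1 replicate 1, 2, 3 or 4, or day 3 replicate 2 or 3 (adjusted p from 0.0514 to 0.108). With only the 1-digit libraries it was 0.27 (adjusted p = 0.358), and with only the 3-digit libraries of the later days it was 0.90 (adjusted p = 0.0363).

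**Figure D2:**
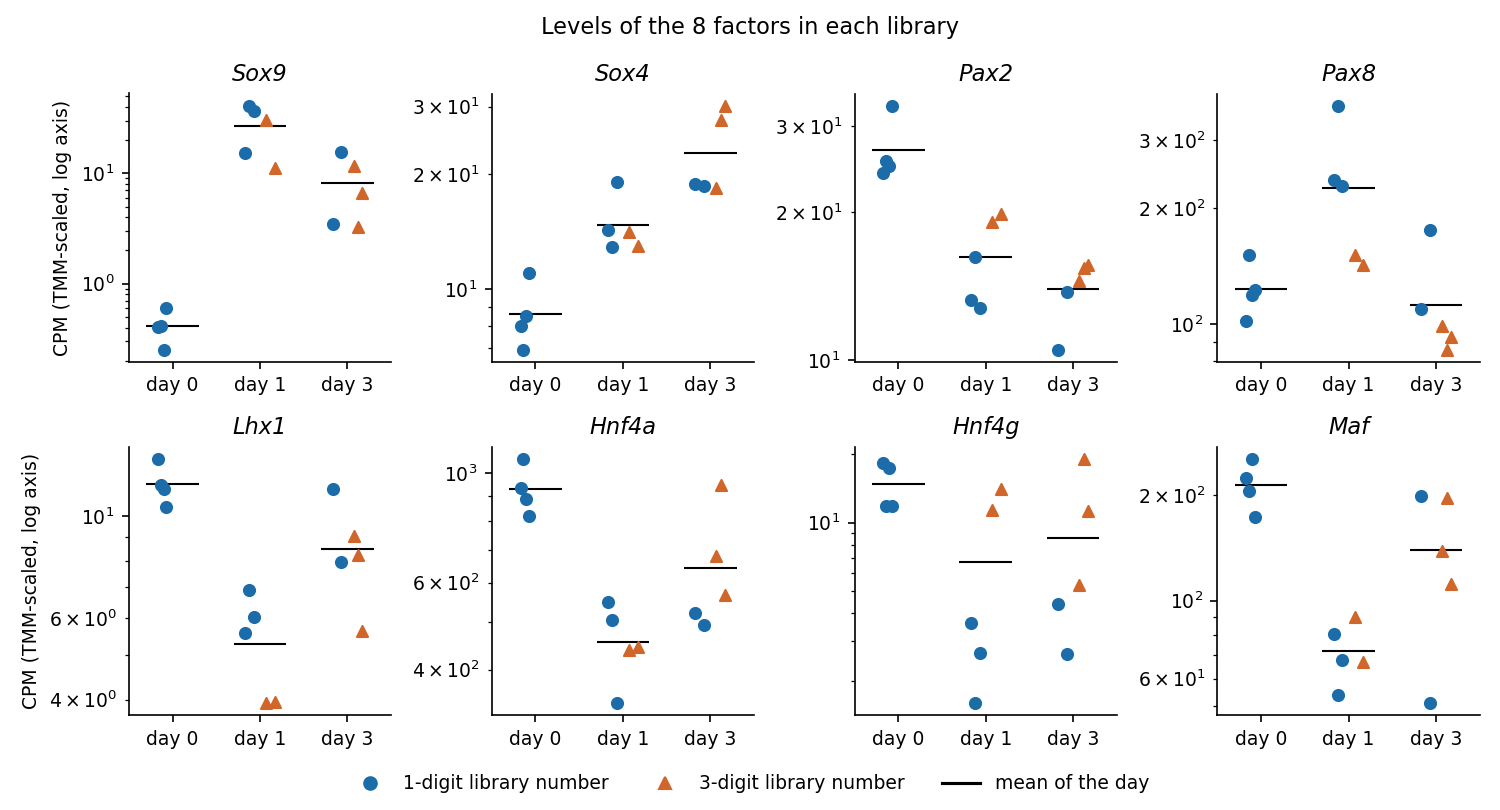
Level of each factor in each library as TMM-scaled CPM on a log axis, by day, with the format of the library number shown by symbol and the mean of the day as a line. Sox9 goes from under 1 CPM at day 0 to 11.1 to 40.9 CPM at day 1, and the 3 circles of Hnf4g at day 1 lie below its 2 triangles.

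Pax2, a paired box factor, spans chr19:44756045-44837871 on the plus strand. It stood at 24.1, 25.4, 24.8 and 33.0 CPM in the libraries of day 0. It stood at 19.1, 19.9, 13.2, 16.2 and 12.8 CPM at day 1, and at 14.5, 15.4, 15.6, 10.5 and 13.7 CPM at day 3. All 10 libraries after IRI were below all 4 of day 0. Pax2 fell at day 1 (log2 fold change -0.72 ± 0.17 SE, adjusted p = 0.00493) and at day 3 (-0.94 ± 0.17 SE, adjusted p = 0.00135). The difference between day 3 and day 1 was -0.22 on the log2 scale, with a 95% confidence interval from -0.58 to 0.13 (adjusted p = 0.377). Pax2 was the only one of the 8 factors that was lower than day 0 past the threshold on both days in the fit by day.

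Pax8, a close relative of Pax2, went in the other direction at day 1. The gene lies at chr2:24420560-24475599 on the minus strand. Its libraries stood at 102, 151, 119 and 122 CPM at day 0, at 151, 142, 237, 369 and 229 CPM at day 1, and at 98.9, 85.8, 92.6, 110 and 175 CPM at day 3. The rise at day 1 sat in replicates 3, 4 and 5, the 1-digit libraries, while replicates 1 and 2 lay within or at the edge of the day 0 range. Over all libraries the change at day 1 was 1.83-fold (0.87 ± 0.28 SE, adjusted p = 0.0219). It was lost without day 0 replicate 1, day 0 replicate 3 or day 1 replicate 4 (adjusted p = 0.0671, 0.0539 and 0.0610). With only the 3-digit libraries of the later days it was 0.25 on the log2 scale (adjusted p = 0.201), and with only the 1-digit libraries it was 1.20 (adjusted p = 0.000735). Pax8 then fell from day 1 to day 3 by 1.01 on the log2 scale (adjusted p = 0.0201, and 0.0547 without day 1 replicate 4). Against day 0 the day 3 value was -0.14, with a 95% confidence interval from -0.72 to 0.44 (adjusted p = 0.720), and its sign depended on the format, at 0.22 with the 1-digit libraries and -0.42 with the 3-digit libraries of the later days (adjusted p = 0.456 and 0.0364).

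Within each library, the ratio of Pax2 to Pax8 reads does not depend on scaling. Its log2 value was -2.08, -2.57, -2.26 and -1.89 at day 0, and -2.98, -2.84, -4.16, -4.51 and -4.16 at day 1. Every day 1 library was below every day 0 library. The mean difference was -1.53, for which an exact permutation test, two-sided, gave p = 0.0238 (adjusted p = 0.0476 over the 6 ratios tested). At day 3 the ratio was -2.77, -2.47, -2.57, -3.38 and -3.67, which overlapped day 0. The mean difference was -0.77, with an exact permutation p of 0.0476 and an adjusted p of 0.0714, and the exact permutation p rose to between 0.0536 and 0.125 when any 1 of the 9 libraries was left out. The smallest p that 4 against 5 libraries allow is 0.00794.

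Reads of Sox4 outnumbered those of Sox9 in every library of day 0 and day 3, while Sox9 had more reads in 4 of the 5 libraries of day 1. Its log2 value was -4.22, -3.98, -4.91 and -4.12 at day 0, and 1.10, -0.22, 0.10, 1.67 and 0.95 at day 1. At day 3 it was -0.66, -3.07, -2.19, -2.42 and -0.25. All later libraries were above all of day 0. The difference was 5.03 at day 1 (exact permutation p = 0.00794, adjusted p = 0.0476) and 2.59 at day 3 (exact permutation p = 0.0159, adjusted p = 0.0476). Without day 0 replicate 3, the day 3 difference was 2.39 with an exact permutation p of 0.0536.

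**Figure D3:**
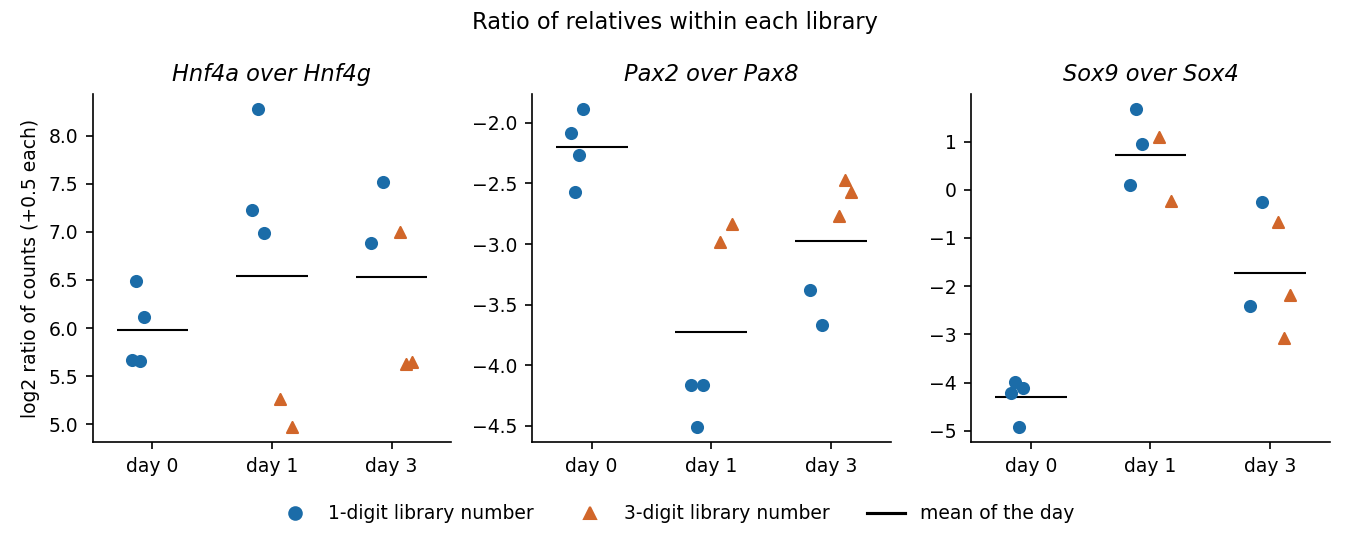
Log2 ratio of the read counts of 2 related factors in each library (0.5 added to each count), by day and library number format, with the mean of the day as a line. The Pax2 to Pax8 ratio lies lower at day 1 than at day 0 in every library, the Sox9 to Sox4 ratio lies higher, and the Hnf4a to Hnf4g ratio of day 1 spreads from 4.98 to 8.27 around the values of day 0.

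Lhx1, a LIM homeobox factor, lies at chr11:84518284-84525535 on the minus strand. It stood at 13.3, 11.7, 11.4 and 10.5 CPM at day 0, at 3.93, 3.95, 5.59, 6.92 and 6.03 CPM at day 1, and at 9.06, 8.22, 5.64, 11.4 and 7.93 CPM at day 3. All day 1 libraries were below all day 0 libraries, and day 3 lay between them with overlap on both sides. Lhx1 fell at day 1 by 1.15 on the log2 scale (SE 0.23, adjusted p = 0.00155). At day 3 the difference from day 0 was -0.47 with a 95% confidence interval from -0.95 to 0.01 (adjusted p = 0.121), and with only the 3-digit libraries of the later days it was -0.61 (adjusted p = 0.0321), against -0.25 with only the 1-digit libraries (adjusted p = 0.284). The rise from day 1 to day 3, 0.68 ± 0.22 SE, had an adjusted p of 0.0464. It was under the threshold when day 1 replicate 4 or day 3 replicate 3 was left out, and over it when any of the other 12 libraries was left out (adjusted p from 0.0523 to 0.111). With RLE size factors the rise was 0.65 (adjusted p = 0.0572), and with only the 2 days compared it was 0.67 (adjusted p = 0.129).

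Hnf4a, the factor with the most reads, spans chr2:163506808-163572910 on the plus strand. Hnf4a messenger RNAs start at separate promoters that tissues use differently, and the gene counts pool them. Its promoters are shown for this reason, as the 250 bases before each start in RefSeq's annotation of GRCm38.p6, with matches to the searched motif found there in capitals. The first lies at chr2:163506607-163506856 and the second, downstream, at chr2:163546905-163547154, both on the plus strand.
Hnf4a first promoter: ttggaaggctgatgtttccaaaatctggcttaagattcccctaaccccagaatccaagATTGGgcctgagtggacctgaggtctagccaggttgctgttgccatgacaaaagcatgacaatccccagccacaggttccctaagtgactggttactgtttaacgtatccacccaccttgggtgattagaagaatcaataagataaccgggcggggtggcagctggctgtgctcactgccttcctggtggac
Hnf4a second promoter: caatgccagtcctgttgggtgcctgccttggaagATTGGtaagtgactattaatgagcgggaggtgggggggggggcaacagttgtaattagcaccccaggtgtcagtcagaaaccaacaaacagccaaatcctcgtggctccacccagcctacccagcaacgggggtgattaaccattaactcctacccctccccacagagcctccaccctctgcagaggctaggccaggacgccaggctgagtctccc
ATTGG, which is CCAAT on the other strand, the letters of the CCAAT box, stood 192 bases before the first start and 216 before the second. CCAAT was found on either strand in 33.8% of 32851 promoters of this length. A match describes letters and not a bound site.

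Hnf4a levels were 931, 1067, 888 and 818 CPM at day 0, 438, 444, 548, 504 and 342 CPM at day 1, and 680, 947, 565, 521 and 492 CPM at day 3. The highest library of day 1 was below the lowest of day 0, and at day 3 replicate 2 alone stood inside the day 0 range. Means were 926 ± 105 (SD, n = 4), 455 ± 77.6 (SD, n = 5) and 641 ± 185 CPM (SD, n = 5). At day 1 Hnf4a was at 0.492 of its day 0 level (log2 fold change -1.02 ± 0.20 SE, adjusted p = 0.00133). At day 3 it was at 0.693 of that level (-0.53 ± 0.20 SE), and its adjusted p of 0.0518 missed the threshold. The day 3 difference passed without day 3 replicate 2 (-0.71, adjusted p = 0.00474), without day 1 replicate 1 or 5 (adjusted p = 0.0489 and 0.0475), by DESeq2 (adjusted p = 0.0206), with RLE size factors (adjusted p = 0.0433), and with only the 1-digit libraries (-0.85, adjusted p = 0.00438). It did not pass with only the 3-digit libraries of the later days (-0.34, adjusted p = 0.165). From day 1 to day 3 the difference was 0.49 with a 95% confidence interval from 0.09 to 0.90 (adjusted p = 0.0849), and it passed without day 3 replicate 5 (0.55, adjusted p = 0.0490), without TMM (0.66, adjusted p = 0.0270) and with only the 3-digit libraries (0.73, adjusted p = 0.0479), but was 0.11 with only the 1-digit libraries (adjusted p = 0.698).

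Hnf4g, at chr3:3508030-3658052 on the plus strand, was low beside Hnf4a and varied widely within day 1 and within day 3. It stood at 18.3, 11.9, 17.5 and 11.8 CPM at day 0. At day 1 it was at 11.4 and 14.1 CPM in replicates 1 and 2, the 3-digit libraries, and at 3.61, 1.60 and 2.65 CPM in replicates 3, 4 and 5. At day 3 it was at 5.29, 19.1 and 11.3 CPM in replicates 1, 2 and 3, again the 3-digit libraries, and at 4.37 and 2.64 CPM in replicates 4 and 5. On both days every 3-digit library was above every 1-digit library, and the formats did not overlap in 60.7% of all genes at day 1 and 41.4% at day 3. Over all libraries Hnf4g did not pass the threshold at day 1 (-1.14 ± 0.62 SE, adjusted p = 0.149) or at day 3 (-0.80 ± 0.62 SE, adjusted p = 0.333). The day 1 difference was -1.61 without day 1 replicate 2 (adjusted p = 0.0499). Between the later days it was 0.35 (adjusted p = 0.720), and -0.18 without day 3 replicate 2 (adjusted p = 0.855).

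Taken within the 1-digit libraries, which include all of day 0, Hnf4g fell on both days. When day and format were fitted jointly, it fell by 2.51 at day 1 (fold 0.176, adjusted p = 0.000239) and fell by 2.08 at day 3 (fold 0.237, adjusted p = 0.00275) on the log2 scale. With only the 3-digit libraries of the later days the differences from day 0 were -0.22 and -0.32 (adjusted p = 0.696 and 0.520). The log2 ratio of Hnf4a to Hnf4g reads was 5.67, 6.49, 5.66 and 6.11 at day 0. At day 1 it was 5.26 and 4.98 in the 3-digit libraries, below day 0, and 7.23, 8.27 and 6.99 in the 1-digit libraries, above it. Over all libraries the ratio differed by 0.56 at day 1 and 0.55 at day 3, with exact permutation p of 0.444 and 0.286. Leaving out 1 library moved the day 1 value from 0.13 (without day 1 replicate 4) to 0.96 (without day 1 replicate 2), and the day 3 value from 0.31 (without day 3 replicate 5) to 0.78 (without day 3 replicate 2). With only the 1-digit libraries the day 1 difference was 1.52, with an exact permutation p of 0.0286.

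Maf lies at chr8:115682942-115707794 on the minus strand. Its levels were 223, 204, 253 and 173 CPM at day 0, 89.6, 67.1, 80.4, 53.8 and 67.7 CPM at day 1, and 139, 196, 111, 199 and 51.1 CPM at day 3. Day 1 lay wholly below day 0, and the libraries of day 3 spread over both earlier ranges, with replicate 5 below every library of day 1. Maf fell to 0.336 of its day 0 level at day 1 (log2 fold change -1.57 ± 0.30 SE, adjusted p = 0.00123), the deepest fall among the 7 factors that changed, and 4.17% of all genes fell further. At day 3 the difference was -0.62 with a 95% confidence interval from -1.25 to 0.02 (adjusted p = 0.122). The rise from day 1 to day 3 was 0.96 ± 0.29 SE (adjusted p = 0.0360). That call was lost without day 0 replicate 1 or 2, day 1 replicate 3, 4 or 5, or day 3 replicate 1, 2, 3 or 4 (adjusted p from 0.0504 to 0.0911), and with only the 1-digit libraries (0.88, adjusted p = 0.125).

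Compared by library number format in the same fit, 2 of the 8 factors differed at day 1 and 1 at day 3, against 35% (18.6% higher and 16.4% lower in the 3-digit libraries) and 18.5% (10.3% higher and 8.22% lower) of all genes. Hnf4g was higher in the 3-digit libraries by 2.29 ± 0.46 SE at day 1 (adjusted p = 0.00269) and by 1.75 ± 0.48 SE at day 3 (adjusted p = 0.0276). The day 3 difference was not past the threshold without day 3 replicate 2, 3 or 5 (adjusted p = 0.0855, 0.0596 and 0.206). Pax8 was lower in the 3-digit libraries at day 1, with a difference of -0.93 ± 0.24 SE (adjusted p = 0.0107, and 0.0894 without day 1 replicate 2). At day 3 its difference was -0.62 (adjusted p = 0.0755, and 0.0446 and 0.0260 without day 1 replicate 4 and without day 3 replicate 4). Adjusted p of the other 6 factors lay between 0.0552 and 0.826 at day 1. At day 3 the 6 other than Hnf4g and Pax8 lay between 0.121 and 0.689. For Lhx1 and Pax2 at day 1 the values were -0.65 and 0.47 (adjusted p = 0.0552 and 0.0555). Lhx1 was past the threshold by DESeq2 (-0.69, adjusted p = 0.0305) and with RLE size factors (-0.69, adjusted p = 0.0449). Pax2 was past it without TMM (0.68, adjusted p = 0.0168). Lhx1 passed without day 3 replicate 1, 3, 4 or 5 (adjusted p from 0.0353 to 0.0438), and Pax2 without day 0 replicate 4, day 1 replicate 4, or day 3 replicate 4 or 5 (adjusted p from 0.0385 to 0.0475). At day 3 Maf was higher by 1.54 without day 3 replicate 4 (adjusted p = 0.0126) and was at -0.44 without day 3 replicate 5 (adjusted p = 0.395). Leaving out a 1-digit library of day 3 leaves 1 library in that group, which is assumed to vary like the others. Sox4 was higher by 0.63 without day 3 replicate 1 (adjusted p = 0.0456). The difference of the format effects between the 2 days passed for 0 of 8 factors by edgeR, 0 at an unadjusted p under 0.05 and 0 by DESeq2 (adjusted p from 0.219 to 0.976), against 17.6% of all genes.

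**Figure D4:**
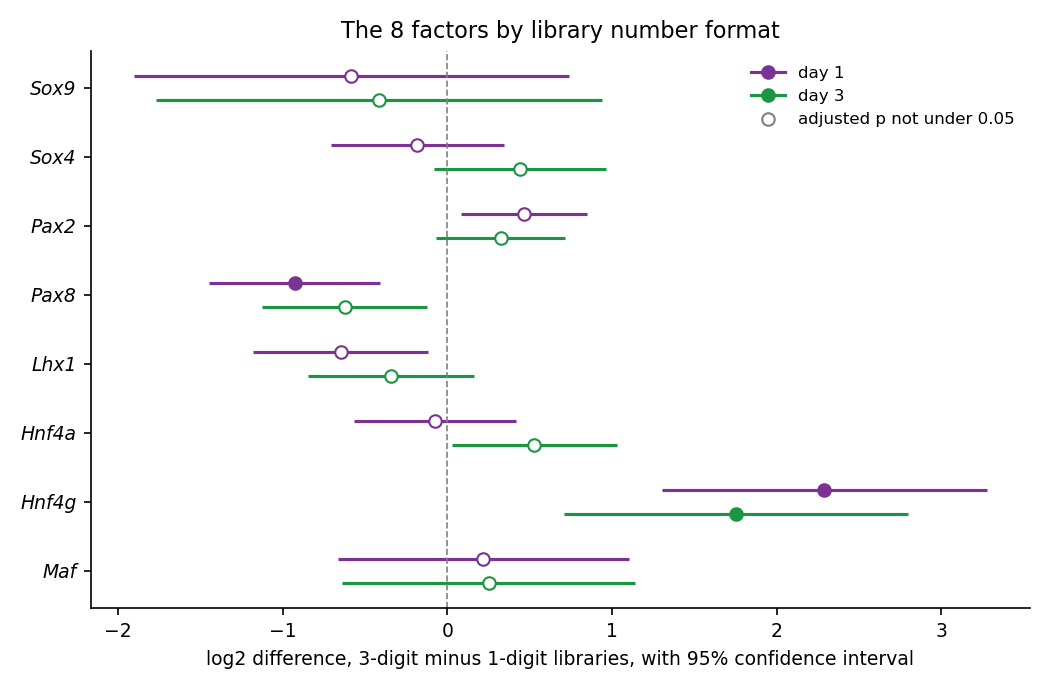
Difference between 3-digit and 1-digit libraries of the same day on the log2 scale (x axis) for each factor, with 95% confidence intervals, at day 1 (purple) and day 3 (green), where open symbols mark an adjusted p that is not under 0.05. Hnf4g lies to the right on both days, at 2.29 and 1.75, and Pax8 to the left, at -0.93 and -0.62.

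Within the 1-digit libraries all 8 factors differed from day 0 at day 1, against 58.5% of all genes (28.9% higher and 29.6% lower), with Sox9, Sox4 and Pax8 higher and the other 5 lower. At day 3 it was 5 of 8, against 53.7% (28.6% higher and 25.1% lower), with Sox9 at 4.48 and Sox4 at 1.12 higher and Pax2 at -1.15, Hnf4a at -0.87 and Hnf4g at -2.08 lower on the log2 scale. The Hnf4a call had an adjusted p of 0.00589, and 0.0533 without day 3 replicate 5. Maf, at -0.77 (adjusted p = 0.119), was at -2.06 without day 3 replicate 4 (adjusted p = 0.000724) and at -0.08 without day 3 replicate 5. Sox9 was at 3.06 without day 3 replicate 5 and at 5.20 without day 3 replicate 4. Each of these fits leaves a single 1-digit library at day 3, which is assumed to vary like the other groups. Marker lists were compared by format too, beside 35% of all genes called at day 1 and 18.5% at day 3. At day 1 the summed level of the 20 proximal tubule markers was 55670 to 73309 CPM in the 1-digit and 28758 to 43836 CPM in the 3-digit libraries, where 10 of the 20 were lower and 1 higher. At day 3 the order was the reverse, at 16645 to 26046 and 26362 to 37627 CPM, with 9 of 20 higher in the 3-digit libraries. Hnf4g was higher in the 3-digit libraries on both days. Of 6 urothelium markers, 3 stood higher among the 3-digit libraries at day 1, where the list summed to 13.4 to 95.1 CPM against 4.84 to 7.64 CPM, and Upk3a and Krt15 had no read in a library of that day. At day 3 all 6 proliferation genes and 6 of 11 macrophage markers were higher in the 3-digit libraries and 1 macrophage marker was lower. The injury and dedifferentiation list summed to 34091 to 39812 CPM in the 3-digit and 10473 to 19138 CPM in the 1-digit libraries of day 1, with 4 of 18 genes higher and 1 lower. At day 3 the order was the reverse, at 8055 to 35140 against 38475 to 46001 CPM, with 2 of 18 lower, and on neither day was the share of this list called above that of all genes. Of the nephron segment factors 7 of 19 were higher and 1 lower in the 3-digit libraries at day 1, and at day 3 these libraries were higher in 4 of 5 thick limb genes and lower in 5 of 7 endothelial genes. The proliferation genes summed to 329 to 531 CPM against 22.6 to 55.7 CPM, and the macrophage markers to 278 to 485 CPM against 133 to 143 CPM, with Ms4a7 and Cx3cr1 at 0 in a library. The part of these lists in the results for the factors was not tested.

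Compared per kilobase of the longest transcript, Hnf4a had the highest level on each day, with means of 212 ± 24.1 CPM per kb at day 0, 104 ± 17.8 at day 1 and 147 ± 42.5 at day 3 (SD, n = 4, 5 and 5). At day 0 it was followed by Pax8 at 36.5 and Maf at 33.6, Hnf4g at 6.39 and Pax2 at 6.16, Lhx1 at 3.04, Sox4 at 1.80 and Sox9 at 0.101 CPM per kb. Pax8 and Maf, and Hnf4g and Pax2, differed by less than their SD at day 0. Sox9 went from the lowest of the 8 to the fourth place at day 1, with 6.51 ± 3.18 CPM per kb (SD, n = 5), where it was below Maf at 11.3 ± 2.16 and did not differ from Pax2 at 3.73 ± 0.747 beyond its spread. At day 3 it was again the lowest mean, at 1.96, within its SD of Lhx1 at 2.20 and Pax2 at 3.20, and Sox4, at 4.73 ± 1.19, took the fourth place, within the SD of Hnf4g at 3.67 ± 2.90. Pax8 and Maf change places at day 0 when the union of all exons is used as the length.

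The genes whose pattern was most like that of a factor were taken as those with the smallest root mean square difference of centred log2 CPM over the 14 libraries. This is a description without a test. Sox9 was nearest to Lif, a cytokine of the interleukin 6 family, at 0.49, to Socs3, an inhibitor of cytokine signalling, at 0.49, and to Inhbb, a subunit of activin B, at 0.59. The spread of Sox9 itself on this scale was 2.42. Lif was higher by 6.28 at day 1 and 4.33 at day 3 on the log2 scale, and Socs3 by 5.71 and 4.33 (adjusted p at most 2.96e-05 for these 4 values). Sox4 was nearest to Ddx58, which encodes a sensor of viral RNA, at 0.25, and to Rasa3 and Tpbg, both at 0.29. Pax2 was nearest to Zfp874a at 0.16, Hacd2 at 0.18 and Bcorl1 at 0.19. Pax8 was nearest to Txnl1 at 0.15 and to Ippk, an inositol phosphate kinase, and Eif5, a translation initiation factor, at 0.17 and 0.18.

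Among the factors that fell, Lhx1 was nearest to Tsc22d3, a target of glucocorticoids, at 0.20, Crebrf at 0.22 and Klhl24 at 0.24. Hnf4a was nearest to Dmxl2 and Susd6, both at 0.17, and to Myo6, an unconventional myosin, at 0.18. Maf was nearest to Kbtbd11 at 0.26, to Ppargc1a, a coactivator of mitochondrial genes, at 0.31, and to Magix at 0.32. Ppargc1a fell by 1.74 at day 1 and fell by 1.05 at day 3 on the log2 scale (adjusted p = 5.17e-05 and 0.00206). Hnf4g was nearest to Spice1 and Senp8, both at 0.32, and to Zfp324 at 0.34, and none of these 3 genes passed the threshold on either day against day 0. Among the 8 factors themselves, Hnf4a and Lhx1 were each other's nearest at 0.38, Pax2 and Maf were nearest to Hnf4a at 0.42 and 0.48, and Sox9 was no closer to another factor than 2.06, to Sox4. Pax8 was nearest to Pax2 at 0.80, which is more than the spread of Pax8 (0.60) or of Pax2 (0.46), so no shared pattern is meant. Hnf4g was nearest to Maf at 0.82, against 0.91 to Hnf4a.

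Lhx1 is shown beside Hnf4a for its like pattern, and Sox4 and Pax8 as factors that rose, again as the 250 bases before the RefSeq start with CCAAT matches in capitals. They lie at chr11:84525535-84525784, chr13:28953700-28953949 and chr2:24475600-24475849, all on the minus strand.
Lhx1 promoter: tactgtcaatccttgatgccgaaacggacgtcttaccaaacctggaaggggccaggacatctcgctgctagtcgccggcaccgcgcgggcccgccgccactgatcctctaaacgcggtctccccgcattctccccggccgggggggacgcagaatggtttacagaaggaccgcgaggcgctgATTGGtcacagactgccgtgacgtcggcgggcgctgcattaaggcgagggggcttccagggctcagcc
Sox4 promoter: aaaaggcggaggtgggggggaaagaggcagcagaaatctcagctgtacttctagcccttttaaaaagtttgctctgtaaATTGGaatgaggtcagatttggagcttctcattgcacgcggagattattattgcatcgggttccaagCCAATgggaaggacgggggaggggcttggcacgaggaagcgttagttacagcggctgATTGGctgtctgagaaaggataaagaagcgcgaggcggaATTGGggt
Pax8 promoter: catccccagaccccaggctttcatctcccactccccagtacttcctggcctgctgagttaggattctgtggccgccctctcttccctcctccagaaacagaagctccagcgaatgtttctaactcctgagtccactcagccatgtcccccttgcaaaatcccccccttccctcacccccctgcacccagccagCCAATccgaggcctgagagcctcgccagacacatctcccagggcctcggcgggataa
Sox4 held 4 matches to the CCAAT letters, at 171, 104, 47 and 8 bases before its start. Pax8 held 1 at 57 and Lhx1 1 at 68. None of the 3 promoters of Pax2, which are not shown, held a CCAAT match. The CCAAT letters were added to the search after the sequences were seen. The other motifs searched on both strands were CAAAGTCCA and CAAAGNNCA for HNF4 (0.384% and 5.49% of all promoters), TGANTCA for AP-1 (6.75%), TTCCNGGAA for STAT (0.913%), TGACGTCA for the cyclic AMP response element (1.55%), and ACAAAG and ACAATG for SOX factors (25.2%), with TATAAA searched on the strand of the gene (7.59%). Of these, only ACAAAG was found, 1 time each in 2 of the 3 promoters of Pax2. The G and C share was 50.8% for Sox4, 60.4% for Pax8 and 64.8% for Lhx1, against a median of 52.4% over all promoters. Promoters of 5 of the 8 factors were matched, and Sox9, Hnf4g and Maf were not.

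Some relatives from the same families were examined as well. Of the 8 listed, Sox11 and Sox12 passed the expression filter, and Sox8, Sox10, Pax5, Lhx5, Mafa and Nrl did not, with at most 18 reads in any library. Sox11, which shares its subfamily with Sox4 and Sox12, also rose, from 0.512 ± 0.0921 CPM at day 0 (SD, n = 4) to 6.82 ± 7.04 at day 1 and 3.51 ± 2.85 at day 3 (SD, n = 5). The log2 fold changes of Sox11 were 3.73 and 2.77 (adjusted p = 0.00407 and 0.0220), and its day 1 counts ran from 15 to 408. Sox11 stood at 0.403 to 0.605 CPM at day 0, around the filter's level of 0.583 CPM, so like Sox9 it passed the filter through the later days. Its day 1 mean was 2.68 CPM with 1-digit and 13.0 CPM with 3-digit numbers. For the 1-digit libraries its log2 fold change was 2.35 at day 1 and 1.53 at day 3 (adjusted p = 0.00786 and 0.104). Sox12 was at -0.48 and 0.43 on the log2 scale at day 1 and day 3, and neither value passed the threshold (adjusted p = 0.189 and 0.257). Within the 1-digit libraries Sox12 fell by 1.09 at day 1 (adjusted p = 0.000307) and rose by 0.57 at day 3 (adjusted p = 0.0259).

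Among 19 further transcription factors of nephron segments, all tested, 9 fell and 2 rose at day 1, beside 18.7% and 23.3% of all genes, and 7 fell and 2 rose at day 3, beside 13.8% and 19.5%. Their median log2 fold change was -0.37 at day 1 and -0.64 at day 3, beside 0.01 and 0.05 over all genes. Within the 1-digit libraries 11 fell and 2 rose at day 1 and 12 fell and 1 rose at day 3, with medians of -0.77 and -1.02. The factors that fell at day 1 were Emx1, Esrrb, Esrrg, Irx1, Irx2, Mecom, Pou3f3, Sim1 and Tfap2b. Elf3 and Tfap2a rose. At day 3 Emx1, Esrrb, Irx1, Pou3f3 and Sim1 were still lower, Foxi1 and Hmx2 passed as lower at day 3 after -0.37 and -0.29 at day 1, and Elf3 was still higher. Irx1, an Iroquois homeobox factor of the nephron's intermediate segments, had the deepest fall of the list, at -3.04 and -2.16 (adjusted p = 0.000220 and 0.00231). Elf3, an ETS factor of epithelia, rose by 0.97 and 0.89 (adjusted p = 0.00902 and 0.0186). Esrrg, an orphan nuclear receptor, was at -1.56 at day 1 (adjusted p = 0.00124) and -0.67 at day 3 (adjusted p = 0.0915). Tfcp2l1, a factor of the collecting duct with the highest level of the list, rose at day 3 by 0.77 (adjusted p = 0.0158) after 0.23 at day 1 (adjusted p = 0.410).

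Genes of nephron progenitors were called in 4 of 12 at day 1, beside 42.1% of all genes, and in 3 of 12 at day 3, beside 33.3%, which are shares near the background. Of 15 listed, 12 passed the filter, and Six2, Eya1 and Osr1 did not. At day 1 Cited1 and Etv4 rose and Sall1 and Emx2 fell, and at day 3 Etv4, Hoxa11 and Hoxd11 rose and none fell over all libraries, while within the 1-digit libraries 4 rose and 2 fell at day 3. Etv4, an ETS factor, rose by 3.62 and 3.69 (adjusted p = 0.000200 and 0.000244), and Cited1 by 3.00 at day 1 (adjusted p = 0.00211). Cited1 had 1 to 4 reads in the libraries of day 0, under the filter's level, and passed it through the later days. The median of the 12 was -0.07 at day 1 and 0.07 at day 3 on the log2 scale. Sall1, the most abundant of them, went from 91.4 to 31.0 and 54.2 CPM on average (-1.56, adjusted p = 0.00117, and -0.75, adjusted p = 0.0608). Emx2 was at -1.26 (adjusted p = 0.00254) and -0.72 (adjusted p = 0.0509), and Etv5 at -0.16 and 0.09 without passing. Six2 had no read in any library of day 0.

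Among 18 genes of tubular injury and dedifferentiation, 14 rose and none fell on either day, beside 23.3% of all genes higher at day 1 and 19.5% at day 3. Within the 1-digit libraries 13 rose and 1, Dcdc2a, fell at day 1, and 12 rose at day 3, beside 28.9% and 28.6% of all genes higher. Havcr1, which encodes the injury marker KIM-1, stood at 30.5 to 151 CPM in the 1-digit and 1860 to 3014 CPM in the 3-digit libraries of day 1, against 89.8 to 119 CPM at day 0. The median of the 18 was 3.05 at day 1 and 2.25 at day 3, beside 5.98 and 4.25 for Sox9 and 0.77 and 1.40 for Sox4. Spp1, which encodes osteopontin, rose by 4.01 and 4.57, Lcn2, which encodes the injury marker NGAL, by 9.55 and 9.63, and Clu, which encodes clusterin, by 3.28 and 3.30 on the log2 scale (adjusted p at most 0.000222 for these 6 values). Of the 20 markers of the differentiated proximal tubule, 5 fell at day 1 and 10 at day 3, and none rose, with medians of -0.65 and -1.27, beside 18.7% and 13.8% of all genes lower. The difference between the formats changed from day 1 to day 3 in 13 of the 20, beside 17.6% of all genes. In the 1-digit libraries 7 fell at day 1 and 15 at day 3, with medians of -0.34 and -2.04, beside 29.6% and 25.1% of all genes lower. Kap, an androgen-regulated gene of the proximal tubule and the most abundant of the list, was at -0.19 at day 1 (adjusted p = 0.604) and fell by 2.40 at day 3 (adjusted p = 8.67e-05). Acsm2 was at -0.46 (adjusted p = 0.346) and -1.73 (adjusted p = 0.00480), and Pck1, an enzyme of gluconeogenesis, at -0.60 and 0.94 (adjusted p = 0.280 and 0.120).

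Markers of other segments and cell types were counted beside the factors, and their counts are to be read against the shares of all genes given above, 42.1% called at day 1 and 33.3% at day 3, or 58.5% and 53.7% within the 1-digit libraries. In the thick limb list 4 of 5 genes fell on each day (medians -2.70 and -1.87), and within the 1-digit libraries 3 and 5 fell. Among 10 genes of the distal tubule and collecting duct 4 fell at day 1 and 6 at day 3 (medians -0.48 and -0.96). Among 1-digit libraries 6 of these fell and 2 rose at day 1, and 8 fell and 1 rose at day 3 (medians -0.88 and -1.82). Of 5 general epithelial genes 3 rose on each day and 1 fell at day 3, with the same counts within the 1-digit libraries. The lists share genes, with Krt8 and Krt18 also in the injury list.

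All 5 neutrophil genes tested rose on both days. Their summed levels were 1.33 to 2.07 CPM at day 0, 47.4 to 201 at day 1 and 19.3 to 408 at day 3. S100a9, S100a8 and Retnlg averaged 0.492, 0.268 and 0.0158 CPM at day 0, under the filter's level of 0.583 CPM. Like Sox9, they passed the filter through the days on which they are high. Fibroblast and pericyte genes rose in 2 of 7 at day 1 and 5 of 7 at day 3, beside 23.3% and 19.5% of all genes higher. They summed to 125 to 135 CPM at day 0, at day 1 to 145 to 195 CPM for 1-digit and 334 to 443 CPM for 3-digit numbers, and to 525 to 1154 CPM at day 3. Of the 7, 3 were higher in the 3-digit libraries at day 1, beside 18.6% of all genes, and the format difference changed between the days in 4, beside 17.6%. All 6 proliferation genes rose at day 3 and 0 at day 1 by edgeR (medians 3.42 and 0.39), and within the 1-digit libraries 2 of 6 rose at day 3.

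The next counts also stand beside 42.1% of all genes called at day 1 and 33.3% at day 3, or 58.5% and 53.7% within the 1-digit libraries. Macrophage genes rose in 2 of 11 and fell in 1 at day 1, and rose in 4 and fell in 1 at day 3 (medians 0.38 and 0.75). Within the 1-digit libraries 2 rose and 5 fell at day 1, and 2 rose and 3 fell at day 3 (medians -0.14 and -0.08). Endothelial genes rose in 2 of 7 and fell in 1 at day 1, with no call at day 3 (medians 0.70 and 0.34), while within the 1-digit libraries 4 rose and 1 fell at day 1 and 6 rose at day 3. Podocyte genes rose in 0 of 5 at day 1 and 1 of 5 at day 3. Among 1-digit libraries 1 podocyte gene rose and 1 fell at day 1, and 2 rose and 1 fell at day 3, and 2 were higher and 2 lower in the 3-digit libraries at day 1. Urothelium genes rose in 0 of 6 on both days and 1 fell at day 3. Of 6 T cell genes 2 passed the filter, and on each day Lck rose and Cd8a fell. Cd8a averaged 1.18 CPM at day 0 and 0.247 and 0.143 CPM at day 1 and day 3, so it passed the filter through day 0. The part of these cell types in the levels of the 8 factors was not tested.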

How the data were processed

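Total RNA of mouse kidneys was extracted with TRIzol and sequenced after TruSeq library preparation. According to the submitters' processing notes, the authors trimmed reads with Trimmomatic and aligned them with STAR to mm10. Versions, parameters and annotation are not given in the sources used here. The deposited files hold raw STAR counts for each gene symbol, from reads that map to 1 place, without strand and for each strand. The column of the library strand held 98.5% to 98.7% of strand-assigned reads and was used. The 4 entries that name no gene (29.0% to 38.3% of reads) were left out of library sizes and tests. Sox4, Pax2, Pax8, Hnf4a and Maf overlap genes on the opposite strand, which the column tells apart. Pax2 and Hnf4a each overlap 1 gene on their own strand and Hnf4g overlaps 2, and reads shared with these could be lost.

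Groups came from the sample labels. Tests used edgeR 4.0.16 in R 4.3.3 (quasi-likelihood test, filterByExpr by day, TMM, Benjamini-Hochberg adjustment over 14300 genes, threshold 0.05), with 1 term per day over all 14 libraries, and a further fit with 1 term for each combination of day and number format. Log2 CPM used a prior count of 2. Ratios added 0.5 to each count and were compared by two-sided exact permutation tests. The fit was also run on counts simulated without format groups, which does not show how calls behave under the format differences. No pair of replicates matched within sampling noise (chi-square over degrees of freedom 5.69 to 228), so none was counted as a repeat. Depth was 12485579 to 20476979 reads on genes per library.

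The 8 factors and all gene lists were chosen with earlier results of these data known. Named genes are the 8 factors, the 3 genes most like each, the 3 most abundant genes of each list and the family relatives that passed the filter. Other list members were named after their values were seen. Some genes are not reported here and are left out of the lists. Gene positions are from the GENCODE annotation of GRCm38, and promoter sequences from RefSeq. Each choice was varied in turn: the strand column, RLE or total-count scaling, the filter (none, or 10 counts or more in all libraries), DESeq2 1.42.0, a fit on the 2 compared days alone, a replicate block, a term for number format, later libraries of 1 format alone, the prior count and pseudocount, and the loss of each library.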

Additional observations from a re-analysis of the deposited data

Results flagged for a closer look

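Within the day groups, 33 sets of values (8 factors and 3 ratios on 3 days) were searched for a library far from the others, and 2 were found where chance gives 1.65. Pax2 stood at 33.0 CPM in day 0 replicate 4, against 24.1 to 25.4 CPM in the other libraries of day 0. In that library the distal tubule and collecting duct list summed to 2253 CPM, against 1551 to 1690 in the others. Its thick limb list was the lowest of day 0, at 7853 CPM against 9924 to 11106. The part of this in the Pax2 value was not tested. Without that library Pax2 was still called lower on both later days. Sox4 stood at 19.1 CPM in day 1 replicate 5, against 12.9 to 14.3 CPM in the other libraries of day 1, and the rise of Sox4 at day 1 was past the threshold without it.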

How the results depend on the processing

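Over all alternatives, 524 of 597 values of the factors between days, 608 of 636 values by format and 95 of 108 ratios kept their direction and side of the threshold. The threshold calls of Sox9, Sox4, Pax2, Lhx1, Hnf4a and Maf at day 1 and of Sox9, Sox4 and Pax2 at day 3 against day 0 held in every alternative that tested them, and the step from day 1 to day 3 is where calls were lost most. Sox9 could not be fitted with at least 10 counts in every library. The depth of Sox9 at day 0, 4 to 10 reads, limits the precision of its fold change.

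Factors changed at day 3 against day 0 numbered 5 with the number format as a term, with only 1-digit and with only 3-digit libraries, in place of 3. The first pair of settings added Hnf4a and Hnf4g, and only 3-digit libraries added Lhx1 and Pax8. Between day 3 and day 1 they numbered 6 without TMM, 3 without a filter, 3 with only 1-digit libraries, 0 with only the 2 days compared and 2 with the replicate block, in place of 5. No filter lost Sox4 and Lhx1, only 1-digit libraries lost Sox4 and Maf, and the replicate block lost Sox4, Lhx1 and Maf. Over all genes, only 1-digit libraries gave 8119 at day 3 against day 0 (in place of 4757) and 5194 between the later days, and only the 2 days compared gave 831 (in place of 2276). With only 1-digit libraries the Hnf4a to Hnf4g ratio at day 1 was 1.52 (exact permutation p = 0.0286), and at day 3 the Pax2 to Pax8 ratio was -1.33 and the Sox9 to Sox4 ratio 2.98, both with an exact permutation p of 0.0667, the smallest that 2 against 4 libraries allow. The sign turned for Pax8 at day 3 against day 0 (0.30 with the format as a term, 0.22 with only 1-digit libraries, 0.00264 without TMM), for Hnf4g between the later days (-0.11 with only 3-digit libraries), and, by format at day 1 without TMM, for Hnf4a (0.14) and Sox4 (0.024). The causes were not tested.

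Leaving out each library gave 1 to 5 factors between day 3 and day 1, 1 to 4 by format at day 1, 0 to 3 by format at day 3, 0 to 1 for the difference of the format effects, and 1269 to 3350 genes between day 3 and day 1. The Pax2 to Pax8 ratio at day 3 ranged from -0.90 to -0.60 and the Sox9 to Sox4 ratio from 2.22 to 2.93. Values that turned sign ranged from -0.26 to 0.058 for Hnf4a by format at day 1, -0.18 to 0.82 for Hnf4g between the later days, -0.017 to 0.41 and -0.44 to 1.54 for Maf by format at day 1 and day 3, -0.15 to 0.51 for Pax8 in 1-digit libraries at day 3 against day 0, and -1.13 to 1.01 for Sox9 by format at day 3.

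The replicate numbers are shared between days. Deviations of same-numbered libraries correlated at -0.17 to 0.26 over 13 pairs, of which 4 were over 0.1. Libraries of different numbers were not compared in this way, so whether the numbers pair the samples is not settled. With the replicate number as a block, 7 factors passed at day 1 and 3 factors at day 3 (each against day 0), and 2 factors, Sox9 and Pax8, passed between the later days. The block gave 5162, 4103 and 2044 genes in the 3 comparisons of days.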
